A study of Mus musculus with 2 samples.

Results

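The let-7 genes are a family of microRNA (miRNA) genes whose mature products share 1 seed, and 10 of its members were measured in the neural tube, the embryonic precursor of brain and spinal cord. The members were chosen by gene symbol in GENCODE M21: Mirlet7a-1, Mirlet7a-2, Mirlet7b, Mirlet7c-1, Mirlet7c-2, Mirlet7d, Mirlet7f-2, Mirlet7g, Mirlet7i and Mir98. They are 10 of the 1973 miRNA genes counted. Small RNA shorter than 30 bases was sequenced from neural tube of B6NCrl mouse embryos at 12.5 days. Replicate 1 pooled tissue of 120 embryos and replicate 2 of 88, males and females together, and the labels name no mutation or treatment. All samples belong to this 1 group, so levels were compared between genes and between the replicate libraries.

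A miRNA gene is transcribed as a hairpin, from which a mature strand of the 5p arm or of the 3p arm is cut. The mature strand guides silencing of messenger RNAs that pair with its seed, bases 2 to 8. let-7 was first described as a timing gene of nematode larvae. In vertebrates its mature forms accumulate as progenitors differentiate, and known targets include Hmga2, Lin28 and Ras genes. In mouse neural stem cells let-7b is known to repress the nuclear receptor Tlx and cyclin D1. The RNA-binding protein LIN28 holds let-7 precursors back from maturation by binding their terminal loop, where it contacts the letters GGAG.

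The mature 5p sequences are shown because the whole family is defined by them and because their small differences decide which reads can be told apart. They are from RefSeq on GRCm38.p6, 5′ to 3′, with the seed in capitals.
let-7a-5p of Mirlet7a-1 and Mirlet7a-2: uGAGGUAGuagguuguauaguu
let-7c-5p of Mirlet7c-1 and Mirlet7c-2: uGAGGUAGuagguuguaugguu
let-7f-5p of Mirlet7f-2: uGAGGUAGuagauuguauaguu
let-7b-5p of Mirlet7b: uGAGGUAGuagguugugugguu
let-7d-5p of Mirlet7d: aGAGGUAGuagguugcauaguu
miR-98-5p of Mir98: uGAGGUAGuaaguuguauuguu
let-7g-5p of Mirlet7g: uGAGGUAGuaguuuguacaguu
let-7i-5p of Mirlet7i: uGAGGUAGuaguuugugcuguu

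All 10 members matched a RefSeq hairpin, and each hairpin holds the seed GAGGUAG at the start of its 5p arm. For Mirlet7a-2 the 5p sequence was the let-7a sequence found in its hairpin. Counted from 1 at the 5′ end, with the let-7a base first, let-7c carries A19G and let-7f carries G12A. let-7b carries A17G and A19G, and let-7d U1A and U16C. miR-98 carries G11A and A19U, and let-7g G12U and U18C. let-7i is farthest from let-7a with G12U, A17G, U18C and A19U. The differences other than U1A lie behind the seed.

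The files count 1 value per gene for both arms together. Reads that map to several places stand in a separate row and are in no gene's count. Among annotated miRNA hairpins of GENCODE M21, the 5p sequences of Mirlet7g, Mirlet7i, Mirlet7d, Mir98 and Mirlet7b each occur in 1 hairpin, as do their 3p sequences. The let-7a, let-7c and let-7f sequences each occur in 2 hairpins. The second let-7f hairpin is Mirlet7f-1, which was not analysed here. Mirlet7a-1 and Mirlet7c-2 share their 3p sequence as well, shown here because it leaves neither arm of these genes unique.
3p of Mirlet7a-1 and Mirlet7c-2: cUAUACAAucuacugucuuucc
Mirlet7a-2, Mirlet7c-1 and Mirlet7f-2 have a 3p sequence of their own. Hairpins with the same 5p sequence differ close to its ends. The let-7a pair and the let-7c pair differ from the second base behind its 3′ end, the let-7f pair from base 1 behind it, and each pair from base 1 before its 5′ end. A genome sequence was not used, so copies outside annotated transcripts were not searched. No other annotated transcript away from the let-7 loci held a mature sequence of the members.

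Replicate 1 had 4802411 reads on the genes' own strand and replicate 2 had 4422853. Of the 1973 genes, 371 had at least 10 reads in both libraries and are called detected. Markers of other tissues were present: the endothelial gene Mir126a had 20304 and 18258 counts per 1e+06 gene reads (CPM) in replicates 1 and 2. The 10 counted genes of a neural marker list summed to 10633 and 8954 CPM of uniquely assigned reads. Mir219a-2 alone made up 6590 and 4499 CPM of this, while Mir124a-2, the highest Mir124a gene, had 10.8 and 8.59 CPM. Every RefSeq mature sequence of Mir219a-2, Mir9-2 and Mir9-3 occurs in more than 1 hairpin. How much cells of other types add to the levels given here was not tested, and in bulk tissue fewer cells of a type cannot be told apart from less RNA per cell.

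All 10 let-7 genes were detected, and their summed reads made up a few percent of all miRNA gene reads, almost all of them from members with unique sequences. The family held 207618 reads in replicate 1, or 4.32% (exact binomial 95% interval 4.31 to 4.34), and 171800 reads in replicate 2, or 3.88% (3.87 to 3.90). The intervals cover counting error only. Mirlet7g and Mirlet7i together held 83.5% of the family's reads in replicate 1 and 85.9% in replicate 2. The other 8 genes shared the rest.

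**Figure D1:**
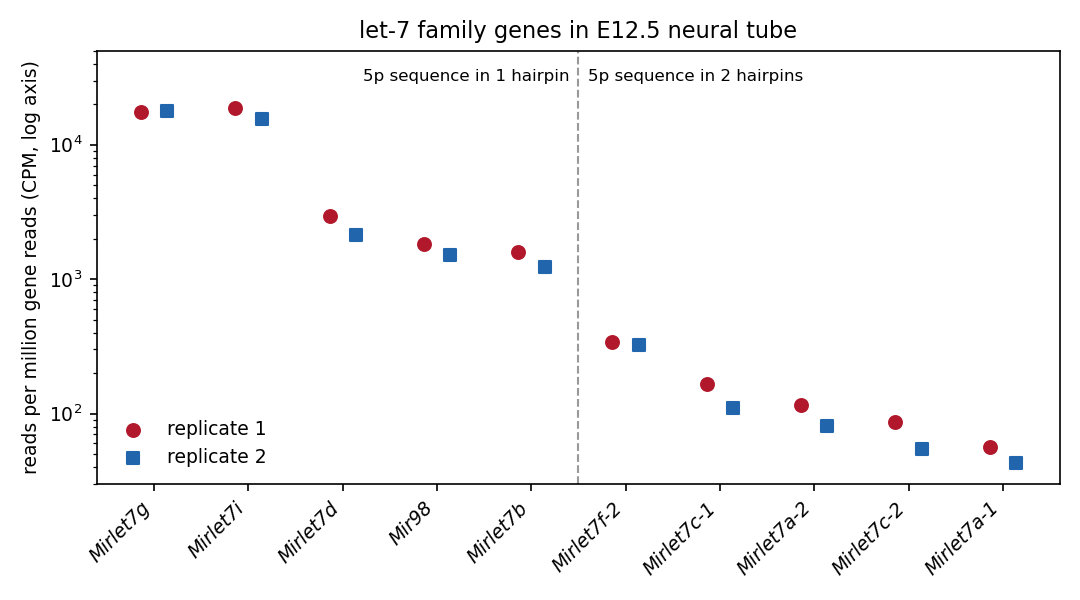
CPM (log axis) of each let-7 gene in replicate 1 (circles) and replicate 2 (squares), ordered by mean CPM, with a dashed line between genes whose 5p sequence occurs in 1 and in 2 annotated hairpins. The 5 genes left of the line lie between 1240 and 18691 CPM and the 5 right of it between 43.0 and 342 CPM.

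Mirlet7g and Mirlet7i, each the only let-7 gene of its transcript, stood among the miRNA genes with the most uniquely assigned reads. A gene with a repeated mature sequence can rank too low by such a count. Whether any gene of that kind exceeds Mirlet7g and Mirlet7i in the tissue was not tested. Mirlet7g lies at chr9:106178840-106178927 (mm10, plus strand) in an intron of Wdr82, and had 17388 CPM in replicate 1 and 17704 CPM in replicate 2. It ranked 11 and 10 among all genes. Mirlet7i lies at chr10:122985640-122985724 on the minus strand, in an exon of the transcribed pseudogene D630033A02Rik. It had 18691 CPM in replicate 1 and 15645 CPM in replicate 2, ranks 9 and 11. Which of these genes led depended on the library, and their ratio of 1.03 ± 0.142 (SD, n = 2) did not differ from 1 beyond its spread.

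Mirlet7d, Mir98 and Mirlet7b formed a middle tier well below this pair. Mirlet7d, at chr13:48536012-48536114 on the minus strand in an exon of the long noncoding RNA 6720427I07Rik, had 2957 CPM in replicate 1 and 2125 CPM in replicate 2. Mir98, at chrX:151913214-151913321 on the plus strand in an intron of the ubiquitin ligase gene Huwe1, had 1829 and 1515 CPM in replicates 1 and 2. Mirlet7b, at chr15:85707319-85707403 on the plus strand in an exon of the noncoding RNA Lncppara, had 1601 and 1240 CPM. Mirlet7i exceeded Mirlet7d by 6.84 ± 0.736 times (SD, n = 2). Mirlet7d exceeded Mir98 by 1.51 ± 0.152 times and Mir98 exceeded Mirlet7b by 1.18 ± 0.0564 times, each in both libraries and beyond its spread.

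The 5 genes whose 5p sequence is repeated had far fewer uniquely assigned reads. Mirlet7f-2, at chrX:151912346-151912428 in the same Huwe1 gene as Mir98, had 342 CPM in replicate 1 and 325 CPM in replicate 2. Mirlet7c-1, at chr16:77599657-77599750 in an intron of the noncoding host gene Mir99ahg, had 165 and 110 CPM. Mirlet7a-2, at chr9:41536716-41536811 in an intron of 3110039I08Rik, had 117 and 81.4 CPM. The lowest were the genes that share both arms. Mirlet7c-2, at chr15:85706603-85706697 in an exon of Lncppara, had 86.8 CPM in replicate 1 and 54.9 CPM in replicate 2. Mirlet7a-1, at chr13:48538179-48538272 in an exon of 6720427I07Rik, had 56.0 and 43.0 CPM.

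Each step in this lower tier exceeded its spread, from 1.38 ± 0.0417 times for Mirlet7c-1 over Mirlet7a-2 to 2.51 ± 0.622 times for Mirlet7f-2 over Mirlet7c-1 (SD, n = 2). Mirlet7b, the lowest gene with unique arms, exceeded Mirlet7f-2, the highest of those with a repeated 5p sequence, by 4.25 ± 0.615 times. Mature strands are of nearly equal length, and CPM was not divided by it. Per 100 bases of hairpin the order of the tiers was as before, while Mirlet7i came before Mirlet7g (20198 against 19938 CPM per 100 bases) and Mirlet7b before Mir98 (1671 against 1548).

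In total the 5 genes with unique arms held 98.2% of the family's reads in replicate 1 and 98.4% in replicate 2. The 3 genes with a repeated 5p sequence and a 3p sequence of their own held 1.44% and 1.33%, and the 2 genes with both arms repeated 0.330% and 0.252%. Summed over its 2 genes, let-7a had 830 and 550 uniquely assigned reads and let-7c 1209 and 730, in replicates 1 and 2. The row of reads that map to several places held 3448592 reads in replicate 1 and 2698981 in replicate 2, which is 16.6 and 15.7 times the family's own reads. How many of them are let-7a, let-7c or let-7f was not tested, so the low values of these genes do not show that those mature forms are scarce.

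Over all counted genes with a RefSeq mature sequence, the class with every annotated arm repeated had the lowest share detected and the lowest median. Of 812 genes whose arms are all unique 286 were detected, with a median of 130.0 CPM among the detected. Of 57 genes with some arms repeated 40 were detected, with a median of 139 CPM, and of 47 genes with every arm repeated 10 were detected, with a median of 60.2 CPM. Genes with every arm repeated held 0.747% of gene reads in replicate 1 and 0.539% in replicate 2. Most of this was a single gene, Mir219a-2, with 6590 and 4499 CPM. The 5 let-7 genes with unique arms, averaging 1420 CPM or more, lay above the median of the detected genes of their class. Of those with 1 arm repeated, Mirlet7f-2 (334 CPM) lay above that median and Mirlet7c-1 (138) and Mirlet7a-2 (99.1) below it. Of those with every arm repeated, Mirlet7c-2 (70.9) lay above and Mirlet7a-1 (49.5) below.

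**Figure D2:**
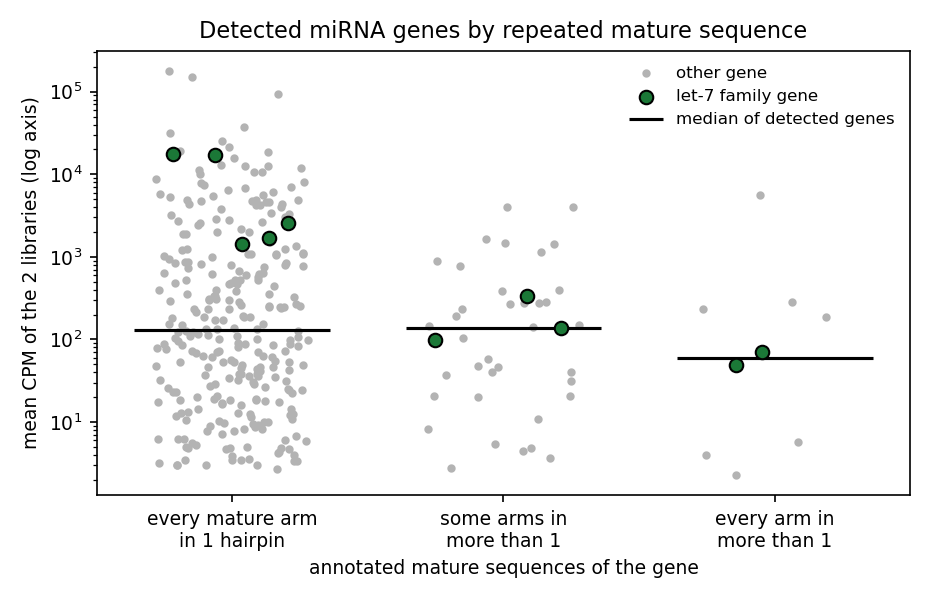
Mean CPM of the 2 libraries (log axis) for detected miRNA genes, split by whether every annotated mature arm occurs in 1 hairpin, some arms in more than 1, or every arm in more than 1. The let-7 genes are the large circles and black lines are medians of detected genes, at 130.0, 139 and 60.2 CPM.

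The loop between the arms, which LIN28 is known to bind, was read from the hairpins. A GGAG on the sense strand was found in the loop of 7 members: Mirlet7a-1, Mirlet7a-2, Mirlet7c-1, Mirlet7d, Mirlet7f-2, Mirlet7g and Mirlet7i. The loops of Mirlet7b and Mirlet7c-2 do not hold it. Among 645 RefSeq hairpins with both arms annotated 8.22% held GGAG in the loop. Among the 62 with a loop as long as those of the members, from 23 to 36 bases, the share was 25.8%. Both sets include the members. A loop with GGAG and one without it are shown to let them be compared, with the motif in capitals.
Loop of Mirlet7g: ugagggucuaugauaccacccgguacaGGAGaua
Loop of Mirlet7c-2: uugggcucugccccgcucugcgguaa
Members with GGAG ranged from the highest (Mirlet7g) to the lowest (Mirlet7a-1, with both arms repeated) in CPM of uniquely assigned reads. Whether GGAG goes with the level of a member was not tested. Levels of LIN28 were not analysed here.

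Of the 10 members 8 lie in clusters, known to be transcribed together, and reads of neighbours in a cluster differed widely. On chromosome 13 Mirlet7d had 52.8 times the reads of Mirlet7a-1 in replicate 1 and 49.5 times in replicate 2, across a gap of 2.06 kb. On chromosome 15 Mirlet7b had 18.4 and 22.6 times the reads of Mirlet7c-2, 621 bases away. On the X chromosome Mir98 had 5.35 and 4.66 times the reads of Mirlet7f-2, 785 bases away. In each of these 3 pairs the gene with unique arms had more reads than the one with a repeated 5p sequence.

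Mirlet7c-1 and Mirlet7a-2 each share a host transcript with a Mir99 family gene and a Mir125b gene. The Mir125 genes are the vertebrate relatives of lin-4, another timing gene of nematodes. Mir99a had 88550 CPM in replicate 1 and 101334 CPM in replicate 2, and exceeded Mirlet7c-1, 656 bases away, by 537 and 920 times. Mir100 had 35182 and 40415 CPM and exceeded Mirlet7a-2, 5.21 kb away, by 301 and 497 times. Mir99a and Mir100 have unique arms. The Mir125b genes share their 5p sequence with each other. Mir125b-2 had 750 CPM in replicate 1 and 814 CPM in replicate 2, or 4.55 and 7.39 times Mirlet7c-1. Mir125b-1 had 974 and 829 CPM, or 8.34 and 10.2 times Mirlet7a-2. Ratios of reads need not equal ratios of molecules, as capture of each sequence was not measured. The 5p sequences of Mirlet7c-1 and Mirlet7a-2 each occur in 2 hairpins, so the counts of these genes can miss 5p reads. How much this adds to their distance from Mir99a and Mir100 was not tested.

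**Figure D3:**
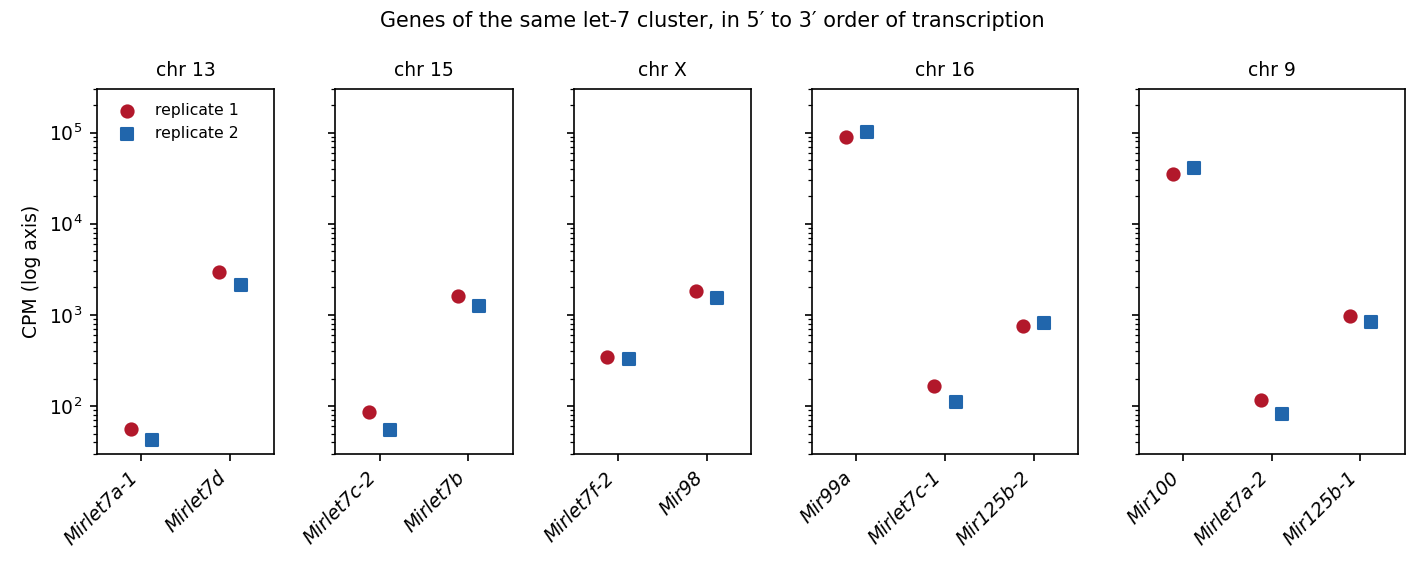
CPM (log axis) of genes of the same let-7 cluster in replicate 1 (circles) and replicate 2 (squares), grouped by cluster. Mirlet7c-1 and Mirlet7a-2 lie lowest in their clusters, 537 and 301 times below Mir99a and Mir100 in replicate 1.

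Between the libraries let-7 genes were mostly somewhat higher in replicate 1, by less than 2-fold. Each gene's pair of counts went into an exact binomial test, two-sided, against totals scaled by TMM (a trimmed mean of ratios), with p adjusted over the 371 detected genes. Of 10 members 8 were higher in replicate 1 past an adjusted p of 0.05, where 26.1% of all detected genes were, and 1 was lower, where 27.0% were. Of all detected genes 53.1% passed in either direction. The test compares 2 libraries and covers counting error, not the spread between pools. At a minimum of 2-fold 0 of 10 members passed, beside 2.70% of detected genes.

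Mirlet7c-2, with 417 reads in replicate 1 and 243 in replicate 2, had the largest log2 ratio of replicate 1 over replicate 2 at 0.62 (exact binomial test, adjusted p = 2.24e-07). Mirlet7c-1 had 792 and 487 reads and a log2 ratio of 0.54, and Mirlet7a-2 had 561 and 360 reads and 0.48. Mirlet7d followed with 14202 and 9400 reads and a log2 ratio of 0.44. The 3 largest ratios thus belonged to genes with a repeated 5p sequence and few reads. Mirlet7a-1 (269 and 190 reads, log2 ratio 0.34) passed with an adjusted p of 0.0266 in the exact binomial test. It did not pass (adjusted p = 0.0791) when genes with at least 1 read in either library were tested.

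Among the abundant members, Mirlet7i had a log2 ratio of 0.22 from 89761 and 69196 reads in replicates 1 and 2, Mirlet7b 0.33 from 7689 and 5484, and Mir98 0.23 from 8782 and 6701. Mirlet7g, the gene in Wdr82, was the 1 member lower in replicate 1, with 83503 reads against 78301 in replicate 2 and a log2 ratio of -0.06 after scaling. Mirlet7f-2 did not pass the exact binomial test, with 1642 and 1438 reads and an adjusted p of 0.642.

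The median log2 ratio of the 10 members was 0.34, against 0.00 over all detected genes. It was 0.23 over the 5 members with unique arms. From the common coefficient of variation of 16.3% (edgeR), a gene's log2 ratio between these libraries has an SD of 0.33. This SD comes from the same 2 libraries, members included, and leaves out counting error. Of the members, 5 lay within 1 such SD of 0, and Mirlet7c-2 was farthest at 1.87 SD. The median absolute log2 ratio was 0.34 for the members and 0.24 for all detected genes. Of the members 9 lay within 1.5-fold, as did 329 of all 371 detected genes. The members are not independent, since several share a transcript or sequence.

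The summed levels of other gene lists also differed between the libraries. The 7 counted skeletal and cardiac muscle markers summed to 882 CPM in replicate 1 and 520 in replicate 2. Of these, 4 were detected and 2 were higher past the test. Most of the muscle sum was Mir206, with 811 and 470 CPM, while Mir208a was lower in replicate 1 with 8.95 and 12.4 CPM. Mir133a-1 and Mir133a-2 were at 0 in both. The neural markers, 8 of 10 detected, summed to 10633 and 8954 CPM, with 3 higher and 2 lower. The higher neural sum of replicate 1 rested on Mir219a-2, with 6590 and 4499 CPM. Mir137, the next in level, was lower in replicate 1 with 2541 and 3077 CPM. Endothelial Mir126a was higher in replicate 1, with a log2 ratio of 0.11. The 7 mesenchyme and smooth muscle markers summed to 16700 and 15540 CPM, with 1 higher past the test and 2 lower. Their higher sum in replicate 1 rested on Mir214, with 6231 and 4836 CPM. Mir143, the next in level, had 5175 and 5505 CPM. The 7 epithelial markers summed to 2194 and 2254 CPM and the 3 leukocyte to 349 and 303. The 4 liver markers summed to 141 and 124 CPM and the 3 erythroid to 112 and 102 CPM. The 3 sensory neuron markers summed to 19094 and 26149 CPM and were all lower in replicate 1 past the test. Beside these list counts, 26.1% of all detected genes were higher past the test and 27.0% lower. Unmapped reads were 27.3% of the file of replicate 1 and 20.0% of that of replicate 2, and reads that map to several places 27.0% and 28.6%. The part of these differences in the let-7 ratios was not tested.

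**Figure D4:**
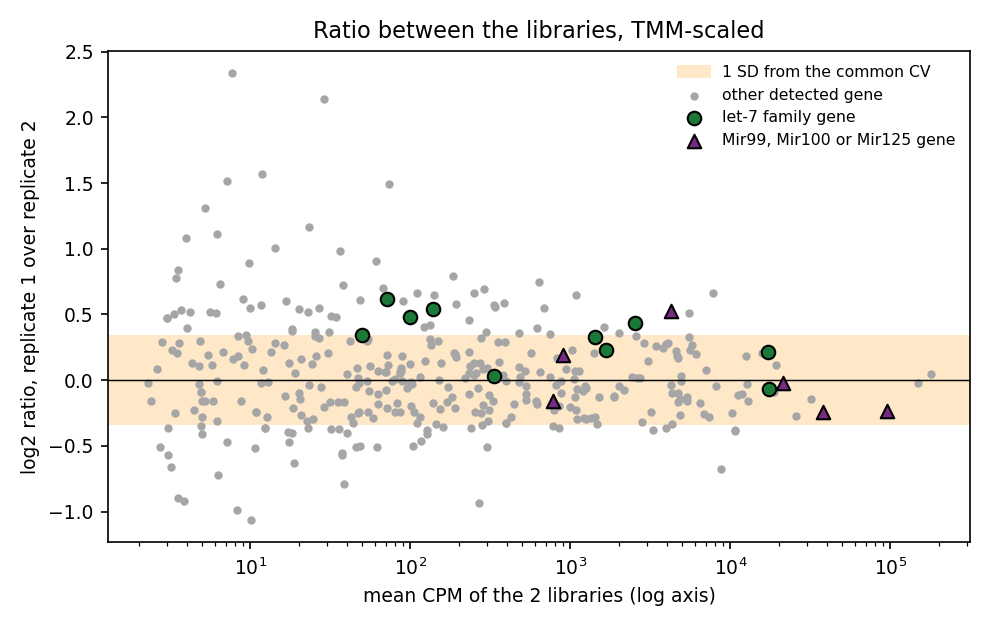
Log2 ratio of replicate 1 over replicate 2 after TMM scaling against mean CPM (log axis) for 371 detected genes, with let-7 genes as large circles, the Mir99, Mir100 and Mir125 genes as triangles, and a band of 1 SD (0.33) either side of 0. Of the let-7 genes 9 lie above 0, while Mir99a and Mir100 lie below it.

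The log2 ratios of Mir99a and Mir100 were opposite in sign to those of the let-7 genes beside them. Mir99a had a log2 ratio of -0.23 and Mir100 of -0.24, while Mirlet7c-1 and Mirlet7a-2 had 0.54 and 0.48. The difference within a host transcript was 0.78 for Mirlet7c-1 against Mir99a and 0.72 for Mirlet7a-2 against Mir100, or 1.65 and 1.53 times the SD of 0.47 that the coefficient of variation gives for such a difference. Against the Mir125b genes of the same transcripts the difference was 0.70 (1.49 SD) for Mirlet7c-1 over Mir125b-2. For Mirlet7a-2 over Mir125b-1 it was 0.29 (0.614 SD). The SD of 0.47 takes the genes of a pair to vary independently, leaves out counting error and comes from the same 2 libraries. Genes of 1 transcript need not vary independently, so whether these differences exceed the usual spread of such pairs was not tested. Mir125b-1, with a log2 ratio of 0.19, had the sign of Mirlet7a-2, and Mir125b-2, with -0.16, the opposite sign to Mirlet7c-1. Of the 6 partner genes 2 were higher in replicate 1 past the exact binomial test and 4 lower. The shares of all detected genes were 26.1% and 27.0%. Of the 4 lower partners, Mir99b turned to higher with library totals or with at least 100 reads asked of both libraries (log2 ratio 0.02 in both). Mir125a, which lies beside Mirlet7e in Spaca6, had 5070 CPM in replicate 1 and 3419 CPM in replicate 2 with a log2 ratio of 0.53, and its neighbour Mir99b had 21576 and 21262 CPM with a log2 ratio of -0.02. Mirlet7e was not analysed here.

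The miRNAs of the embryonic stem cell cycle group, known to sustain self-renewal in opposition to let-7, were present at far lower levels. Their 9 genes summed to 724 CPM in replicate 1 and 664 CPM in replicate 2, beside 43232 and 38844 CPM for the let-7 family. Mir302a led with 255 and 241 CPM, followed by Mir302d with 222 and 213 CPM. Mir302b had 204 and 173 CPM and Mir302c 27.3 and 30.5 CPM. Of the Mir290 cluster, active in embryonic stem cells, 5 genes are among these 9. Mir294 had 51 reads in replicate 1 and 16 in replicate 2, or 10.6 and 3.62 CPM. Mir291a had 10 and 5 reads, Mir295 8 and 2, and Mir291b 2 and 2. Mir293 (11.7 and 11.5 CPM) and Mir292 (4.37 and 5.65 CPM) were detected too, but are not among the 9. Mir290a had 0 reads, and 3 counts, the limit a count of 0 allows, equal 0.625 CPM in replicate 1 and 0.678 CPM in replicate 2. Of the 5 detected among the 9 genes, 2 were higher in replicate 1 past the exact binomial test, Mir302b and Mir294. Lower genes numbered 0. Among all detected genes 26.1% were higher and 27.0% lower.

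By RefSeq entry 13 genes carry a mature miRNA with the let-7 seed. They are 9 of the members, Mirlet7e, Mirlet7f-1, Mir7k and Mir1961, while Mirlet7a-2 has the seed in its hairpin. Mir7k and Mir1961 had 0 reads in both libraries. Members aside, the detected genes closest to the top members over the 2 libraries, by distance in log2(CPM + 1), were Mir130a and Mir126a for Mirlet7g (distances 0.13 and 0.23) and Mir615 and Mir126a for Mirlet7i (0.16 and 0.25). For Mirlet7d they were Mir22 and Mir361 (0.08 and 0.30). With 2 libraries, likeness rests on level and on a single ratio.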

How the data were processed

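MicroRNA sequencing data of 2 neural tube pools were used. Per the deposited descriptions, the authors made whole-number read counts per miRNA gene from each library's alignment, on mm10 with annotation M4. Not given in the sources used here: aligner, counter, trimming. The files hold both strands together and each strand alone, and the own-strand column was used. The 4 rows that name no gene were left out of totals: unmapped reads (27.3% of replicate 1, 20.0% of replicate 2), those with several mapping places (27.0%, 28.6%), those outside every feature (8.04%, 4.45%) and ambiguous reads (0).

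Counts were divided by own-strand totals (CPM). Symbols and coordinates came from GENCODE M21 (1894 of 1973 identifiers matched), sequences from RefSeq on GRCm38.p6. A mature sequence was called repeated when more than 1 M21 miRNA hairpin held it. The libraries were compared with an exact binomial test on TMM-scaled totals over genes with at least 10 reads in both, with Benjamini-Hochberg adjustment. With 1 group edgeR's quasi-likelihood test was not applicable, so only its common dispersion was used. Tools were edgeR 4.0.16, DESeq2 1.42.0 (size factors, as an alternative), R 4.3.3, Python 3.11.15 and scipy 1.17.1. Genes named are the members, their cluster partners, the stem cell cycle list, other genes with the seed, and markers. Also named are Mir292, Mir293 and the 2 detected genes other than members nearest each of the 3 top members. The members and lists were chosen with earlier results of these data known. The labels give separate pools as replicates. Without molecular identifiers, PCR copies of a molecule are counted as separate reads. The loop of 1 member is not reported here.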

Additional observations from a re-analysis of the deposited data

Results flagged for a closer look

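Mirlet7b had reads on the strand opposite to the gene, which the comparisons above do not use: 8 in replicate 1 and 0 in replicate 2. The 8 reads exceed the 3 that a count of 0 allows. In replicate 1 all genes together had 84152 opposite-strand reads beside 4802411 on their own strand. Mirlet7b had 8 beside 7689, a smaller share. Whether its 8 reads exceed background was not tested. Mir98 had 1 such read in replicate 1, and the other 8 members had 0 in both libraries.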

How the results depend on the processing

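With reads that map to several places in the denominator the family's share was 2.46%, against 4.10% ± 0.310 of gene reads alone (SD, n = 2). When at least 100 reads were asked of both libraries 2 genes passed at 2-fold, against 10. Leaving out 1 replicate gave family shares of 3.88% and 4.32%. The test between libraries needs both replicates, so it was not run without 1 of them. The median log2 ratio of the members was 0.23 to 0.38 in the alternatives tried, and all 30 recomputed log2 ratios of single members kept their direction and their side of the threshold under other scaling or both strands. With at least 1 read in either library 7 members were higher in replicate 1, against 8, without Mirlet7a-1, beside 83 of all 736 genes tested there, against 97 of 371. The number of libraries limits every SD and ratio given here, and reads lost to repeated sequences limit the levels of Mirlet7a-1, Mirlet7a-2, Mirlet7c-1, Mirlet7c-2 and Mirlet7f-2.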

Other observations

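Mir7j, chosen after its values were seen, carries the mature miRNA named let-7j on chromosome 3, whose bases 2 to 8 read GAGGUAU and so are not the let-7 seed. Over the 22 bases of let-7i-5p, let-7j differs from it only at base 8. Mir7j had 383 reads in replicate 1 and 183 in replicate 2, or 79.8 and 41.4 CPM. Mirlet7i had 89761 and 69196 reads, and Mirlet7a-1, the lowest let-7 member, had 56.0 and 43.0 CPM. Whether reads of let-7i add to the count of Mir7j was not tested.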
